A study of Homo sapiens with 4 samples.

Results

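The genes described here are the core of the RAS to ERK cascade: the small GTPases HRAS and NRAS, the kinases ARAF and BRAF, the MEK kinases MAP2K1 and MAP2K2, and the ERK kinase MAPK3. Members were chosen by name, and a probe set was counted for a gene where the platform annotation gave exactly that 1 symbol. Of the 7 genes, 5 had such a probe set (HRAS, ARAF, MAP2K1, MAP2K2 and MAPK3), out of 18132 genes so named on the array. They held 12 probe sets, 2 for HRAS, 5 for ARAF, 3 for MAP2K1, 1 for MAP2K2 and 1 for MAPK3. NRAS and BRAF were not analysed here. The data are 4 human PrimeView arrays (Affymetrix) of SCC-9, an established human line of tongue squamous cell carcinoma. On 2 arrays the cells had received a synthetic mimic of miR-585-5p, a microRNA, and on the other 2 the control small RNA miR-NC, each transfected at 30 nM. Total RNA was taken 36 hours after transfection. The line is a single cancer line, and nothing states that the arrays of a group came from separate cultures, so p-values cover the spread between these 4 arrays alone, part of which may be technical.

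In this cascade a growth factor receptor, through an adaptor and an exchange factor, loads RAS at the membrane with GTP. RAS-GTP recruits a RAF kinase, RAF phosphorylates the MEK kinases, and MEK phosphorylates ERK, which then acts on cytoplasmic kinases and on transcription factors. Most of its control runs through phosphorylation and nucleotide exchange, which an mRNA array does not read. In squamous epithelia the cascade is best known for driving proliferation and migration downstream of the EGF receptor.

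The mature microRNA that the mimic stands for is shown because the transfected RNA is what the labels give as different between the groups. A microRNA recognises transcripts mainly through its seed, bases 2 to 8 from the 5′ end, here in capitals. The labels do not give the letters of the mimic itself, and the sequence is the RefSeq entry, on the minus strand of chr5:169263649-169263670 (GRCh38.p14).
hsa-miR-585-5p: cUAGCACAcagauacgcccaga
Whether any member transcript pairs with this seed was not tested, since no transcript sequences were used.

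The median intensity was 31.1 and 30.6 with the mimic and 31.3 and 30.7 with miR-NC, in the linear units deposited. Within a group, log2 differences between arrays had an SD of 0.178 (mimic) and 0.211 (miR-NC). Spiked bacterial poly(A) RNAs were 0.34 higher (log2) in the mean of their probe sets with the mimic, and the 3′ to 5′ ratio of GAPDH was 1.11 and 1.11 on mimic arrays against 1.22 and 1.16 on miR-NC arrays. That of ACTB was high on every array and did not separate the groups, at 14.3 and 14.3 with the mimic and 14.4 and 13.8 with miR-NC. The part of these in the results below was not tested. All 6 measured markers of squamous epithelium, KRT5 and KRT14 among them, were above the control probe sets with no human target on every array. They also changed, 3 higher and 3 lower in mimic cells, with CDH1 (E-cadherin) at -1.26, ITGB4 at -1.11 and KRT14 at 0.97 the largest log2 changes. Their summed intensity was 20068 and 19358 with the mimic and 18160 and 18662 with miR-NC. Of 6 measured leukocyte and endothelial markers, PTPRC and CDH5 were at or under those controls on every array, CD3E was above them on 2 arrays, and CD14, VWF and PECAM1 were above them on all 4. Their summed intensity was 191 and 171 with the mimic and 155 and 156 with miR-NC, with CD14 the 1 that changed (94.6 ± 11.7 in mimic cells and 59.1 ± 5.99 in miR-NC cells, SD, n = 2 each). Of 5 fibroblast markers COL3A1, DCN and LUM were at or under the controls on every array and PDGFRB and COL1A1 above them on all 4. COL1A1 fell to 18.7 ± 0.39 in mimic cells, against 25.8 ± 1.17 in miR-NC cells (SD, n = 2 each, limma adjusted p = 0.0117), and the 5 summed to 79.5 and 75.7 with the mimic and 88.3 and 84.0 with miR-NC. The part of these markers in the results was not tested.

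By the brightest probe set of each gene, mRNA of ERK1 (MAPK3) and A-RAF (ARAF) was called lower in mimic cells. HRAS and the MEK kinases showed no called change. ARAF was not called as the mean of its 5 probe sets (-0.055), a mean that includes the dim 11763195_at, whose call supports no direction. Nor was ARAF called without probe sets that can bind other transcripts (-0.29). The 1 MAPK3 probe set is itself of that kind. MAPK3 was 1.99-fold lower in mimic cells, and 3 of the 5 ARAF probe sets fell by smaller amounts while 1 dim ARAF probe set, with no signal above the controls in miR-NC cells, was higher. In RNA from whole cultures, fewer cells expressing a gene and less RNA per cell cannot be told apart. Over the 12 probe sets, 4 were lower and 1 higher in mimic cells, called at an adjusted p under 0.05 from 1 limma fit over 34505 probe sets with Benjamini-Hochberg adjustment. In that fit 51.0% of all probe sets were called, 23.9% lower and 27.0% higher, so 5 of 12 is no larger a share than that of the array as a whole. The groups did not overlap for 7 of the 12, against 76.8% of all probe sets. With the brightest probe set of each gene, 2 of the 5 genes were called, both lower, against 55.0% of 14122 genes (28.1% higher and 26.9% lower). The groups did not overlap for 3 of these 5, against 79.4% of genes. All 12 passed the filter on dim probe sets, a mean above the 30th percentile (intensity 12.0). On 10 of the 12 every array exceeded the brightest of 20 control probe sets with no human target, which was 16.8 at most.

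**Figure D1:**
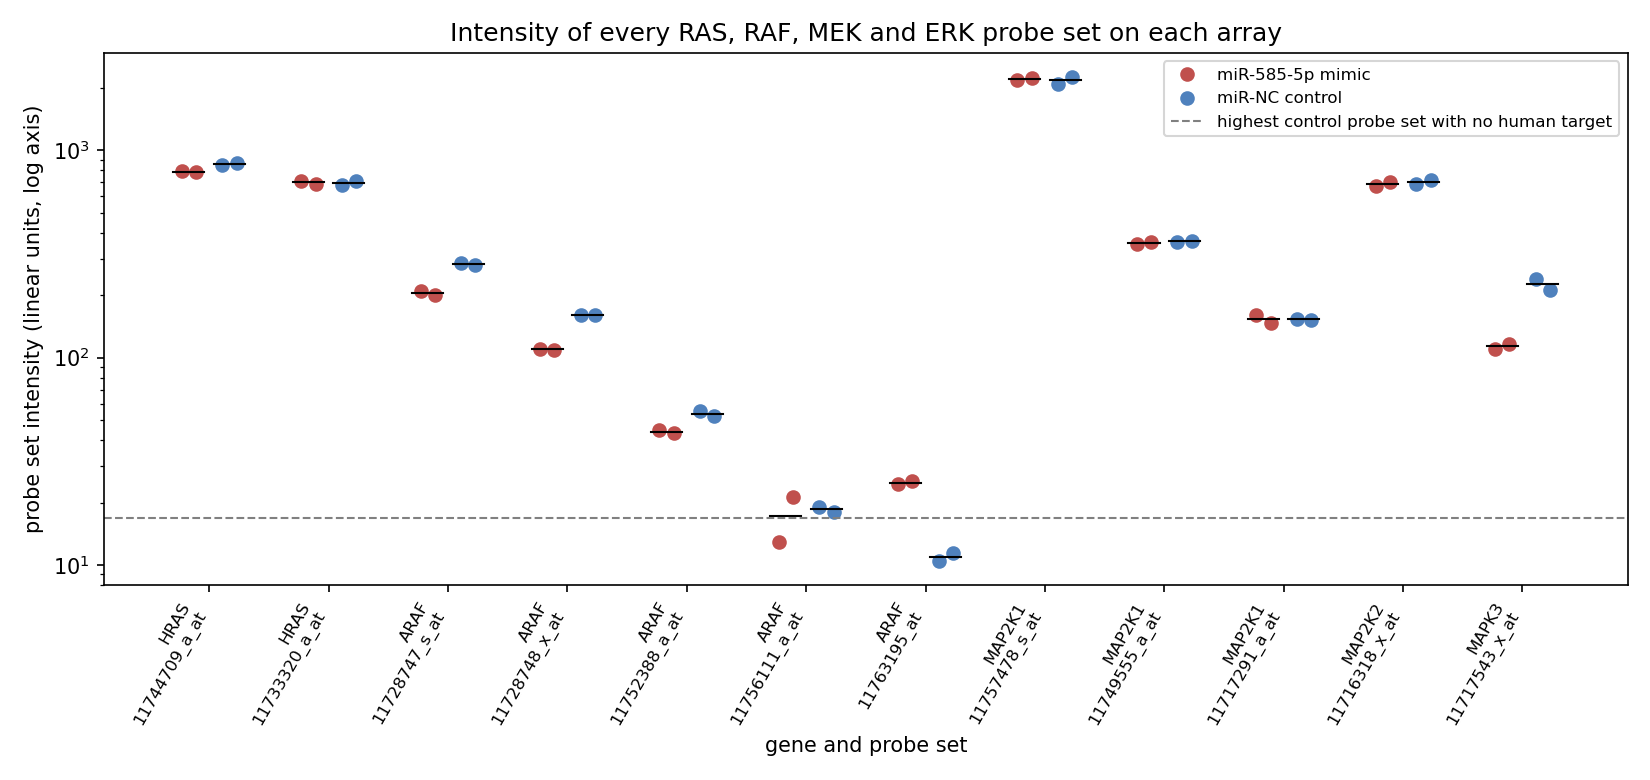
Intensity of the 12 probe sets on each array (log axis), with 2 mimic arrays left and 2 miR-NC arrays right at each probe set and a black line at each mean. The groups separate at MAPK3 and at 4 of the 5 ARAF probe sets, and the points lie together at MAP2K2 and at the 3 MAP2K1 probe sets. The dashed line is the highest control probe set with no human target, at 16.8.

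HRAS, the GTPase first found as the transforming gene of Harvey sarcoma virus, lies at chr11:532242-535576 (GRCh38.p14) and was read by 2 bright probe sets. Its brighter probe set, 11744709_a_at, read 795 and 784 with the mimic and 849 and 870 with miR-NC. The groups did not overlap, but the gap was small. The log2 change was -0.12 ± 0.06 (SE, n = 2 per group), with a 95% interval of -0.25 to 0.00 and a limma adjusted p = 0.0894. The other probe set, 11733320_a_at, read 713 and 690 with the mimic and 680 and 714 with miR-NC. There the groups overlapped, with a change of 0.01 ± 0.06 (limma adjusted p = 0.910) and an interval of -0.12 to 0.14. A change of HRAS by 1.5-fold lies outside both intervals, which hold for the deposited scale only. Scaled to the poly(A) spikes, the brighter probe set was at -0.46 (limma adjusted p = 6.78e-05). HRAS passed the threshold at -0.19 when the arrays were quantile normalized a second time (adjusted p = 0.0108).

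ARAF, at chrX:47561205-47571908, encodes A-RAF, the RAF kinase with the weakest activity towards MEK. It is the member with the most probe sets, which were designed against 4 different transcript records. The brightest, 11728747_s_at, read 210 and 200 with the mimic and 286 and 280 with miR-NC. Both mimic arrays lay well under both miR-NC arrays, and the probe set fell by 0.46 ± 0.08 in log2 units (SE, limma adjusted p = 2.74e-04), a level 1.38-fold lower. The second, 11728748_x_at, designed against the same record, read 111 and 109 with the mimic and 161 and 161 with miR-NC. It fell by 0.55 ± 0.09 (limma adjusted p = 1.78e-04). These 2 probe sets share their target record and are not independent measurements of ARAF.

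The third ARAF probe set, 11752388_a_at, was dimmer, at 44.5 and 43.1 with the mimic and 55.2 and 52.1 with miR-NC. Again the groups did not overlap, and the change of -0.29 ± 0.11 was just past the threshold (limma adjusted p = 0.0490). That call ended under 8 of 15 alternatives, among them leaving out mimic replicate 1 (adjusted p = 0.152), mimic replicate 2 (0.222) or miR-NC replicate 1 (0.124). The _s_at and _x_at endings of the 2 brightest mark probe sets that can also bind other transcripts. Without such probe sets ARAF is read by 11752388_a_at, at an adjusted p = 0.0514 over genes.

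The fourth ARAF probe set, 11756111_a_at, read 12.96 and 21.34 with the mimic and 19.0 and 18.1 with miR-NC. It lay at the level of the controls with no target on 1 mimic array and gave no call (-0.16 ± 0.20, limma adjusted p = 0.547). The fifth, 11763195_at, ran the other way: it read 24.5 and 25.3 with the mimic and 10.5 and 11.4 with miR-NC. Both mimic arrays were higher than both miR-NC arrays (24.9 ± 0.53 in mimic cells and 10.9 ± 0.65 in miR-NC cells, SD, n = 2 each, limma adjusted p = 2.31e-05). Neither miR-NC array was above its brightest control with no target (16.8 and 14.2), so only a bound can be given, at least 1.61-fold higher in mimic cells, from the log2 mean of those 2 controls. Its miR-NC mean is also under the filter of 12.0, which it passed through the mimic arrays, so that its call supports no direction for ARAF. A-RAF has known short splice forms without the kinase domain that inhibit the cascade. The fifth probe set was designed against a record that no other shares, but which splice form a record stands for is not given, and whether a change of splice form is involved was not tested. Averaged over its 5 probe sets, the dim 11763195_at included, ARAF had a change of -0.055 (adjusted p = 0.577).

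MAP2K1, at chr15:66386912-66491544, and MAP2K2, at chr19:4090321-4124122, encode MEK1 and MEK2, the kinases that phosphorylate ERK. MAP2K1 was read by 3 probe sets of very different brightness. The brightest, 11757478_s_at, read 2181 and 2221 with the mimic and 2094 and 2252 with miR-NC. The mimic values lay between the 2 miR-NC values, with a change of 0.02 ± 0.05 (95% interval -0.09 to 0.13, limma adjusted p = 0.768). The next, 11749555_a_at, read 353 and 362 with the mimic and 362 and 364 with miR-NC (-0.02 ± 0.07, adjusted p = 0.796), the groups missing each other by under 1 unit. The dimmest, 11717291_a_at, read 161 and 146 with the mimic and 154 and 152 with miR-NC (0.00 ± 0.09, adjusted p = 0.971). No interval of the 3 reached beyond 0.20 in either direction.

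MAP2K2 read 672 and 701 with the mimic and 687 and 717 with miR-NC (11716318_x_at). The groups overlapped, and the change was -0.03 ± 0.06 (95% interval -0.17 to 0.10, limma adjusted p = 0.667). MAP2K1 and MAP2K2 were compared within each array as the log2 difference of their brightest probe sets, whose absolute size depends on the probes. That difference was 1.70 and 1.66 with the mimic and 1.61 and 1.65 with miR-NC. It moved by 0.05 between groups (exact permutation test, two-sided, p = 0.333, the smallest that 2 against 2 arrays can give). Both mimic values lay just above both miR-NC values, and equal change of the 2 genes is not shown by a p of that size.

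MAPK3, at chr16:30114105-30123220, encodes ERK1, the last kinase of the cascade. Its 1 probe set, 11717543_x_at, read 110 and 117 with the mimic and 240 and 212 with miR-NC. The groups lay far apart relative to their spread, at 114 ± 4.44 in mimic cells and 226 ± 19.7 in miR-NC cells (SD, n = 2 each). It fell by 0.99 ± 0.09 on the log2 scale (SE, 95% interval -1.19 to -0.79, limma adjusted p = 2.58e-06), a level 1.99-fold lower. Of all probe sets tested, 3.01% had a lower change. The call held under all 16 alternatives that could be computed, with changes from -1.33 to -0.90. The ending _x_at marks possible binding of other transcripts, and no other MAPK3 probe set was available to compare it with.

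**Figure D2:**
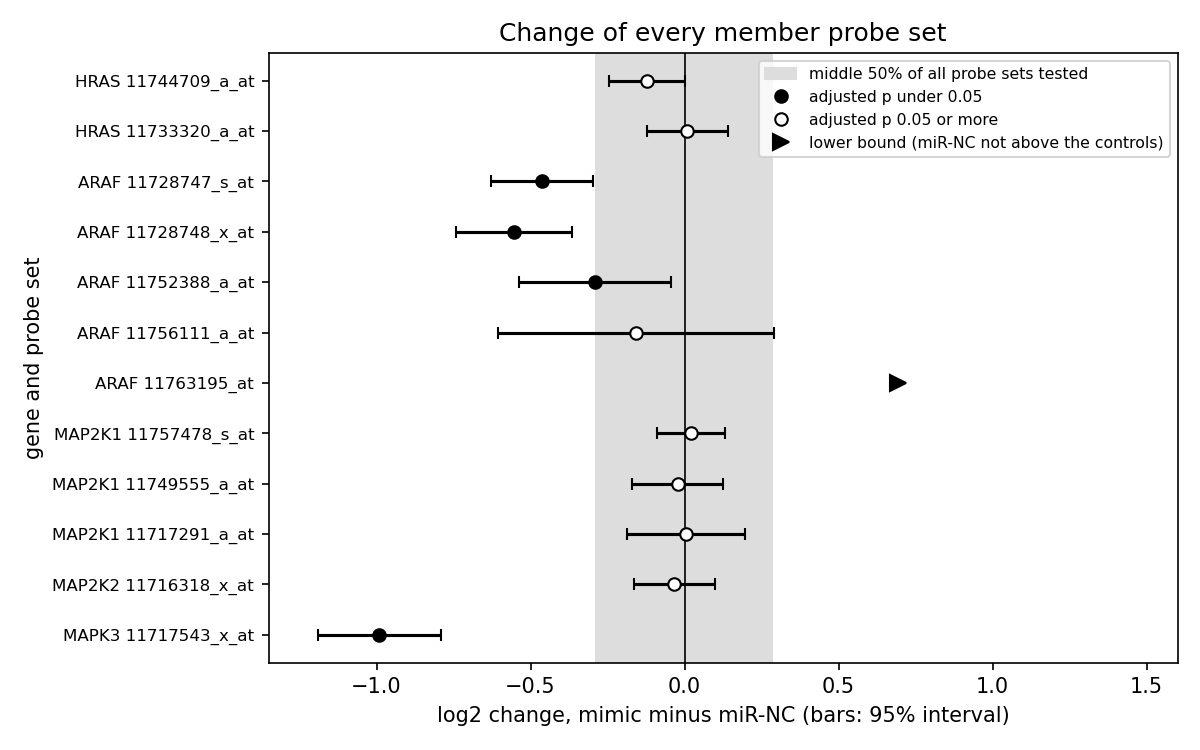
Log2 change of each member probe set, mimic minus miR-NC, with 95% intervals from the limma fit (filled points had an adjusted p under 0.05). MAPK3 at -0.99 and the brightest ARAF probe sets at -0.46 and -0.55 lie left of the grey band, which holds the middle 50% of all probe sets tested, and the triangle marks the dim ARAF probe set at its lower bound of 0.69, with no interval, since neither miR-NC array was above the controls, while the HRAS, MAP2K1 and MAP2K2 points lie inside it.

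These values are relative to the array as a whole. Scaled to the spiked poly(A) RNAs instead, every log2 change is lower by 0.34. All 12 probe sets were then called, the dim ARAF 11763195_at higher and the rest lower. MAP2K1 was then at -0.32 (adjusted p = 0.00801), MAP2K2 at -0.37 (0.00147), HRAS at -0.46 (6.78e-05), ARAF at -0.80 (6.97e-11) and MAPK3 at -1.33 (5.50e-25). The scale came from poly(A) spike means (log2) of 6.21 and 6.17 with the mimic and 5.76 and 5.95 with miR-NC. Any error in it is shared by all probe sets, so the 12 calls are not independent. MAPK3 had a limma adjusted p = 2.58e-06 on the deposited scale. With so few arrays, the far smaller value after scaling is not read as stronger evidence. On the poly(A) scale the calls over all probe sets were 3835 higher and 18613 lower, against 9332 and 8257 on the deposited scale.

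The 250 bases before the annotated starts of MAPK3 and ARAF are shown because these were the 2 genes whose brightest probe sets fell. GC boxes, searched as GGGCGG or its reverse complement, are in capitals, and the sequences are RefSeq's for GRCh38.p14, read in the direction of each gene.
MAPK3, chr16:30123221-30123470, minus strand: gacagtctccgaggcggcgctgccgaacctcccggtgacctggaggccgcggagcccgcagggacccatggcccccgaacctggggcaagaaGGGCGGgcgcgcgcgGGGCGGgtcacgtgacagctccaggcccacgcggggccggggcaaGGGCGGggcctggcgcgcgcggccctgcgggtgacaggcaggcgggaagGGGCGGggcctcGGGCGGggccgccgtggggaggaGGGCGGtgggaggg
ARAF, chrX:47560955-47561204, plus strand: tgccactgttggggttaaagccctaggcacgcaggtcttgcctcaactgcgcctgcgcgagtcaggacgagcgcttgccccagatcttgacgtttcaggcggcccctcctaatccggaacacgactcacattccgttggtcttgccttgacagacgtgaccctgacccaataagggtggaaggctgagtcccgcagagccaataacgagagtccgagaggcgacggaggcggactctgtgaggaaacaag
The MAPK3 window held 6 GC boxes and the ARAF window 0, where 42.6% of 35116 windows of that length held 1 or more. The members with no called change held 3 (HRAS), 3 (MAP2K1) and 2 (MAP2K2). The base composition of the 2 also differed, at 80.4% G and C for MAPK3 and 59.2% for ARAF. The E box CACGTG was found 1 time before MAPK3 and in 6.34% of all windows, and CCAAT or its reverse complement 2 times before ARAF and in 32.0% of all windows. CCAAT was also found 1 time each before HRAS and MAP2K1, which had no called change. The 2 genes shared none of the motifs searched, which were these and the ETS motif CCGGAAG on both strands, found in 8.52% of windows and among the members only before HRAS. A match is a description of letters and shows no binding.

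Around the members, the genes that act on or with RAS, RAF, MEK and ERK changed in both directions. Of 76 tested genes in 7 lists, 32 rose and 19 fell, or 67.1% called, against 55.0% of all genes, with a median log2 change of 0.16 against -0.06 for all genes. The lists were chosen with earlier results of these data known, and over all genes 28.1% rose and 26.9% fell. Counts use the brightest probe set of each gene, and values below are log2 changes ± SE from 2 arrays per group, with adjusted p from limma. On the poly(A) scale each value is 0.34 lower, and the 76 genes were then 15 higher and 29 lower, so that the more frequent direction turned. Without cross-hybridizing probe sets, with fewer genes measured, 19 were higher and 15 lower. Averaged over all probe sets of the gene, several were smaller by more than 1.5 times though still called: RRAS2 at 0.39, PTPN11 at 0.27, RASA3 at 0.32 (0.47 without cross-hybridizing probe sets), RASAL2 at -0.62, SPRED2 at 0.25 and MKNK1 at -0.48.

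Among 8 relatives of RAS, 5 rose and 2 fell. MRAS, which joins the phosphatase complex that activates RAF, rose by 0.77 ± 0.13 (adjusted p = 5.29e-04), RRAS2 by 0.75 ± 0.08, RAP1B by 0.74 ± 0.06 and the mTOR activator RHEB by 0.63 ± 0.06. RRAS2 read 983 and 956 with the mimic against 530 and 628 with miR-NC. RHEB was at -0.17 without cross-hybridizing probe sets, a setting in which fewer relatives had a value and 1 rose and 1 fell, and MRAS was at 0.18 with the mean of its probe sets (adjusted p = 0.187).

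Upstream of RAS, most called genes were lower. Of 9 tested activators and adaptors 5 fell and 1 rose (0 on the poly(A) scale), with a median of -0.44, where 26.9% of all genes fell. Among the 5, RASGRF1 exceeded the controls with no target on only 2 arrays, and SOS1 depended on the probe set, as given below. The docking protein GAB1, which links receptors to SHP2, read 45.1 and 38.9 with the mimic and 96.4 and 94.2 with miR-NC, a change of -1.19 ± 0.11 (adjusted p = 6.52e-06). The adaptor SHC1 read 1292 and 1221 with the mimic and 2446 and 2391 with miR-NC (-0.95 ± 0.05, adjusted p = 9.09e-08), and all 3 of its other probe sets above background fell too. PTPN11, which encodes SHP2, rose by 0.51 ± 0.07 (0.17 on the poly(A) scale, adjusted p = 0.200). The exchange factor SOS1 was at -0.73 ± 0.08 by its brightest probe set, but at 0.32 without cross-hybridizing ones (adjusted p = 0.00122), so its direction rests on the probe set chosen.

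Of 9 tested inhibitors of RAS, 3 rose and 2 fell by their brightest probe sets, though 5 rose without miR-NC replicate 2 and 1 fell without mimic replicate 2. On the poly(A) scale 2 were higher and 4 lower. The GTPase activating protein RASA3 rose by 1.11 ± 0.08, at 238 and 229 with the mimic and 113 and 104 with miR-NC, and the RAF inhibitor SPRED2 rose by 0.58 ± 0.07 (0.24 on the poly(A) scale, adjusted p = 0.0564). RASAL2, of the same enzyme class as RASA3, fell by 1.01 ± 0.08. NF1, which encodes neurofibromin, was at 0.81 ± 0.06 by its brightest probe set and at -0.54 without cross-hybridizing ones. Of its 12 other probe sets above background 1 rose and 3 fell, so no direction is given for NF1.

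Among 8 tested genes for lipid processing and trafficking of RAS, 2 rose and 3 fell (1 rose without mimic replicate 1, and 4 without miR-NC replicate 2). On the poly(A) scale 0 were higher and 5 lower. Without cross-hybridizing probe sets 0 genes of the list fell, but LYPLA2 and LYPLA1 had no value in that setting. The thioesterases LYPLA2 and LYPLA1, which remove palmitate, fell by 1.32 ± 0.06 and 0.66 ± 0.06. LYPLA2 read 506 and 470 with the mimic against 1239 and 1196 with miR-NC. Both brightest probe sets are marked as able to bind other transcripts. LYPLA2 had no other probe set above background, while the 1 other of LYPLA1 fell too. ZDHHC9, a subunit of the palmitoyltransferase for HRAS, fell by 0.42 ± 0.08, though it was at -0.07 without cross-hybridizing probe sets. The carrier PDE6D rose by 0.30 ± 0.08 (adjusted p = 0.0106), a call lost without mimic replicate 1 (0.23, adjusted p = 0.149) and on the poly(A) scale (-0.038).

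Of 18 tested scaffolds and regulators of RAF, MEK and ERK, 10 rose and 4 fell. The catalytic subunits of protein phosphatase 1, which in the SHOC2 complex strip an inhibitory phosphate from RAF, did not all change alike. PPP1CC read 4335 and 4351 with the mimic and 1519 and 1526 with miR-NC, a rise of 1.51 ± 0.04 (adjusted p = 2.24e-09) that its 2 other probe sets above background shared. Without cross-hybridizing probe sets PPP1CC was at 2.28. PPP1CB was at -0.99 ± 0.06 by its brightest probe set and -0.07 as the mean of all, and 1 of its 3 other probe sets above background rose. LAMTOR3, a scaffold of MEK1 and ERK1 on late endosomes, rose by 0.96 ± 0.08, and IQGAP1, a scaffold of MEK and ERK at the cell cortex, fell by 0.90 ± 0.05 with its 3 other probe sets. The count of 10 was 6 without mimic replicate 1, 6 without mimic replicate 2, 4 without cross-hybridizing probe sets and 3 on the poly(A) scale, where 5 were lower, and the count of 4 was 2 without mimic replicate 1.

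Below ERK, 2 of 10 genes for ERK-activated kinases and ETS partners rose and 3 fell (5 on the poly(A) scale). RPS6KA1, which encodes the ERK-activated kinase RSK1, read 101 and 92.4 with the mimic and 296 and 310 with miR-NC. It fell by 1.65 ± 0.08 (adjusted p = 8.14e-08), as did its 2 other probe sets above background. MKNK1, another kinase that ERK activates, fell by 0.99 ± 0.09, while the ETS factor ELK3 rose by 0.64 ± 0.06 and RPS6KA4 by 0.60 ± 0.09. RPS6KA4 was at 0.17 with the mean of its probe sets (adjusted p = 0.0784).

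Of 14 tested genes commonly used as readouts of ERK activity 9 rose and 0 fell, with a median of 0.38. That is 64.3% called, against 55.0% of all genes, in a list chosen with earlier results of these data known. DUSP6, the phosphatase that inactivates ERK and is itself induced by it, read 358 and 375 with the mimic and 131 and 136 with miR-NC, a rise of 1.46 ± 0.07 (adjusted p = 8.80e-08). ETV5 rose by 1.24 ± 0.11, DUSP4 by 1.12 ± 0.10 and cyclin D1 (CCND1) by 0.79 ± 0.06. The count of 9 was 6 without mimic replicate 1, and on the poly(A) scale 4 of the 14 were higher and 2 lower. The activity of ERK itself was not measured.

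**Figure D3:**
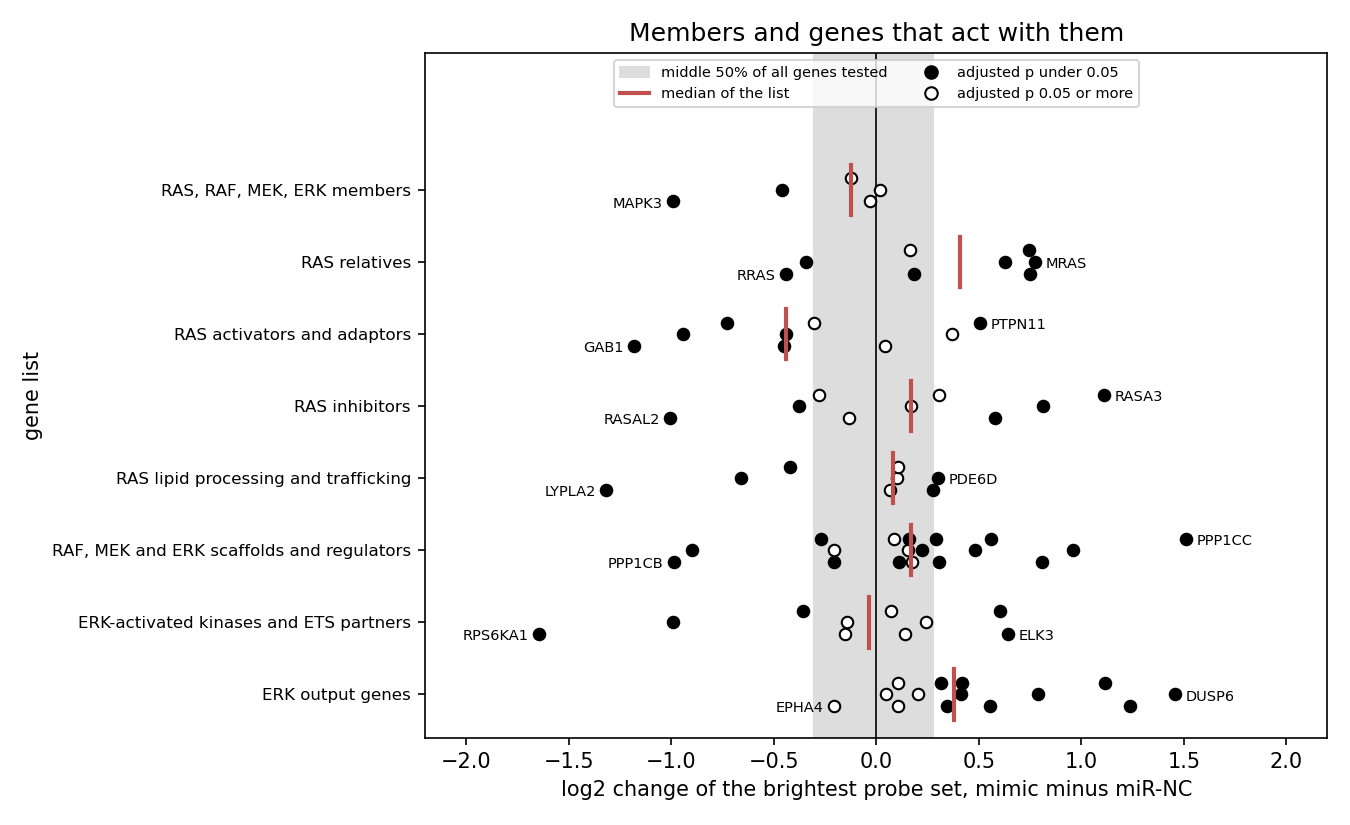
Log2 change of the brightest probe set of each gene, mimic minus miR-NC, for the 5 measured members and the 7 lists of genes that act with them (filled points had an adjusted p under 0.05, red lines are medians). The members lie between MAPK3 at -0.99 and MAP2K1 at 0.02, the activators and adaptors have the lowest median at -0.44, and the lists reach from RPS6KA1 at -1.65 to PPP1CC at 1.51.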

How the data were processed

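The values used are the probe set intensities the authors deposited for 4 arrays, made with RMA per the submitters' processing notes (version not given in the sources used here). They run from 2.09 to 17329, which is a linear scale for RMA values, and log2 was taken with no pseudocount. RMA brings arrays close to 1 distribution, so a shift shared by most transcripts cannot be seen. The deposited medians still ran from 30.6 (mimic replicate 2) to 31.3 (miR-NC replicate 1). Groups came from the sample titles. Of 49395 probe sets 102 are controls. Of the rest, 44988 have 1 symbol in the platform annotation, 1832 several and 2473 none here.

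Probe sets with a mean above the 30th percentile (intensity 12.0) were tested in R 4.3.3 with limma 3.58.1 (lmFit, eBayes with a mean-variance trend), mimic minus miR-NC, two-sided, with Benjamini-Hochberg adjustment over all 34505 probe sets and a threshold of 0.05. A second fit took the brightest probe set of each gene (14122 genes). The prior contributed 9.59 degrees of freedom beside 2 residual ones. The number of arrays limits the precision. A probe set at the level of 20 control probe sets with no human target on every array of a group is given as a bound, the other group's mean over the mean of the brightest such control on each array of that group (log2 scale). The members and lists were chosen with earlier results of these data known. Named genes were every member with every probe set and up to 4 called genes of each list with the largest change. Other genes, such as CD14 and the markers, were named after their values were seen. Planned comparisons of HRAS with NRAS and of ARAF with BRAF were not made.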

Additional observations from a re-analysis of the deposited data

How the results depend on the processing

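Over the 5 member genes, the count of member probe sets and the counts over the array, 193 of 210 values under the alternatives kept their direction and their side of the threshold, or stayed within 1.5 times a count or within the replicate spread of a difference. The rest follow. Scaled to the poly(A) spikes, 3835 probe sets were higher and 18613 lower, 1573 genes higher and 7818 lower, 12 member probe sets were called, HRAS was at -0.46 and MAP2K2 at -0.37 (both called), and MAP2K1 at -0.32, HRAS 11733320_a_at at -0.33, MAP2K1 11717291_a_at at -0.33 and PDE6D at -0.038 turned lower. With a second quantile normalization HRAS was called at -0.19, and MAP2K1 (-0.052), HRAS 11733320_a_at (-0.050) and MAP2K1 11717291_a_at (-0.050) turned lower. Scaled to the hybridization spikes MAP2K2 was at 0.019 and MAP2K1 11749555_a_at at 0.029. ARAF was not called by the mean of its probe sets (-0.055), the dim 11763195_at included. Without cross-hybridizing probe sets ARAF was not called either (-0.29), and MAP2K1 was at -0.023, RHEB at -0.17, SOS1 at 0.32 and NF1 at -0.54. MAPK3 and MAP2K2 have no value there, having only probe sets so marked. Leaving out each array in turn gave 11185 to 18091 probe sets called, 4924 to 8407 of them lower (fewest without mimic replicate 2), MAP2K1 at -0.033 to 0.072, HRAS 11733320_a_at at -0.026 to 0.045, ARAF 11756111_a_at at -0.52 to 0.20 and MAP2K1 11717291_a_at at -0.066 to 0.075. The lone array left in a group was assumed to vary like the others. The cause of these differences was not tested.

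With the replicate block 18959 probe sets were called in place of 17589, and the 5 member calls stayed 5, with MAPK3 at an adjusted p = 3.08e-24. With so few arrays, that value is not read as stronger evidence than the limma adjusted p = 2.58e-06 without the block. Deviations of same-numbered arrays correlated at 0.05, which cannot show whether such arrays were handled together. The labels give them a shared number only, and they were not treated as pairs. Array number and signal near the controls with no target limit ARAF 11756111_a_at and 11763195_at most.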
